A study of Mus musculus with 22 samples.

Results

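Mouse embryonic stem cells (ESCs) that lack Ezh2 were set against primitive endoderm (PrE) stem cell lines that had been derived from wild-type ESCs with EPZ-6438, an inhibitor of the EZH2 enzyme. The knockout group, KO10_SL, was made of the 3 libraries titled as Ezh2 knockout clone 10 in SL, a serum and LIF medium, with a null genotype and ESC culture with LIF in their labels. The EPZ-derived group, iPrE, was made of the 4 libraries whose titles begin with EPZ.iPrE, with 2 libraries of each of 2 lines, iPrE1 and iPrE2, a wild-type genotype and PrE stem cell culture. These 7 of the 22 RNA-seq libraries in the series were chosen by their titles, and all come from E14, a mouse ESC line. The question was which pluripotency, Polycomb target and endoderm genes separate genetic loss of Ezh2 in ESCs from established PrE lines. Wild-type E14 libraries in ESC culture with LIF served to place the knockout values. They are 3 titled ESC (E14_ESC) and 2 titled TG2A.NG.PB.ESC (TG2A_ESC). For the endoderm genes, 2 libraries titled as clone 10 in SL, rescued, were set beside them as the clone after Ezh2 rescue.

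The knockout is 1 clone, and its genotype is spelled "Eeh2-null" in the labels. The labels do not say whether EPZ-6438 was present when the iPrE lines were harvested, nor whether replicates were separate cultures, so p-values measure the spread between these libraries, which may be technical. Genotype, cell type, medium and inhibitor history all change together between KO10_SL and iPrE and cannot be told apart. In bulk RNA, fewer cells that express a gene and less RNA per cell cannot be told apart either.

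EZH2 is the main catalytic subunit of Polycomb repressive complex 2 (PRC2), which methylates histone H3 at lysine 27 and helps keep developmental genes silent, Hox genes among them. PrE is the extraembryonic layer that arises beside the pluripotent epiblast in the blastocyst, is specified by GATA factors downstream of FGF signalling, and lays down basement membrane. It gives rise to the visceral and parietal endoderm of the yolk sac. ESCs are the cultured counterpart of the epiblast and are kept pluripotent by factors such as OCT4 (Pou5f1), SOX2 and NANOG.

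Depth was 22.8 to 24.3 M estimated counts in KO10_SL and 13.6 to 16.2 M in iPrE. Levels are given in CPM, the counts per 1 M of the TMM-scaled library size, in the order of replicates 1 to 3 for the knockout and iPrE1 replicates 1 and 2, then iPrE2 replicates 1 and 2. They are not divided by gene length, so levels of different genes are not compared. Fold changes are log2 values from edgeR's quasi-likelihood test, positive where KO10_SL was higher, with a standard error (SE) and a Benjamini-Hochberg adjusted p over all 17547 genes tested, and calls were made at 0.05. Where a group held few counts, its levels or counts are given without a fitted fold change, which would then depend on the prior count. Ezh2 itself had 0.0813, 0.0409 and 0.0424 CPM in KO10_SL, which are 4 counts over the 3 libraries, against 137, 138, 135 and 141 CPM in iPrE. Every knockout library thus lacked almost all Ezh2 transcript, and both iPrE lines kept it. Most landmark genes matched the labelled cell types, with Nanog, Sox2 and Fgf4 high in KO10_SL and Gata6, Gata4, Sox17 and Pdgfra high in iPrE. Of the other markers fixed for this check, Dab2 overlapped between the groups. Pou5f1 and Zfp42, though higher in KO10_SL, were still detected in iPrE. The 12 fibroblast genes that were fixed as markers summed to 42.8, 49 and 47.6 CPM in KO10_SL and to 182.4, 30.7, 60.6 and 301.6 CPM in iPrE, so iPrE1 replicate 1 and iPrE2 replicate 2 stood apart, and results that change without these 2 libraries are given both ways. Dcn and Mmp3 of that list were at 0 in KO10_SL and none was at 0 in iPrE. Of the 12 genes, 8 were called lower in KO10_SL and 3, Thy1, Twist1 and Pdgfrb, higher, beside 32.5% and 39.7% of all genes. The 2 iPrE libraries that stood apart are named below as those with more fibroblast RNA, by the marker sum alone. Hnf4a, Cubn and Dab2 were also higher in each than in the other library of its line. The source of this RNA was not tested.

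Most of the transcriptome differed between KO10_SL and iPrE. Of 17547 genes, 6958 were called higher in KO10_SL (39.7%) and 5695 lower (32.5%), and the median change over all genes was 0.14. Against that background, the 3 classes of genes went different ways. Of the 44 endoderm genes that passed the filter on low counts, out of 48, 33 were lower in KO10_SL, 7 were higher and 4 were not called, with a median change of -2.22. Of 36 pluripotency genes, 26 were higher, 1 was lower and 9 were not called, with a median of 1.99. Of 59 Polycomb target genes that passed the filter, out of 67, 36 were higher, 4 were lower and 19 were not called, with a median of 1.98. Genes that passed the filter only through the group where they are high had to differ, so these counts describe the lists. The plot of calls by list shows how the lists behind the classes differ.

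**Figure D1:**
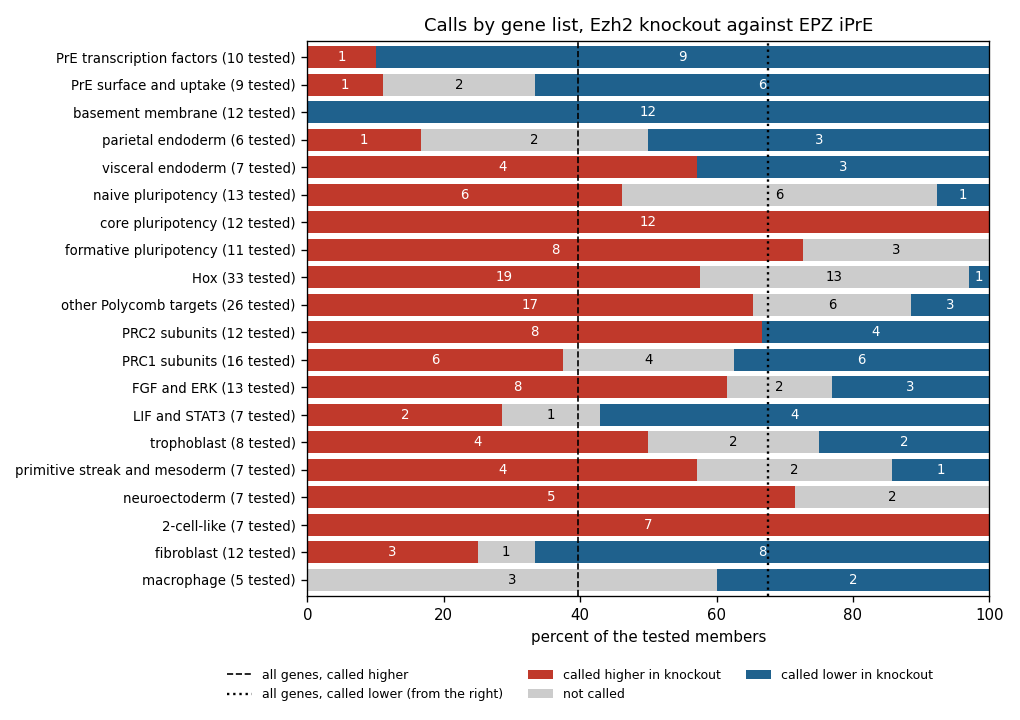
Percent of the tested members of each gene list (rows) that were called higher (red), not called (grey) or called lower (blue) in KO10_SL against iPrE, with the number of genes printed in each bar and the shares over all genes, 39.7% higher and 32.5% lower, as vertical lines. Basement membrane genes were lower in all 12 cases and core pluripotency genes higher in all 12, while the Hox list held 19 higher, 13 not called and 1 lower.

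Most endoderm regulators were expressed in KO10_SL above both wild-type ESC sets and far below iPrE. Of the 10 PrE transcription factors, 9 were lower in KO10_SL than in iPrE and 1 was higher, with a median change of -2.97. Gata6, which specifies PrE, had 42.4, 36.2 and 34.2 CPM in KO10_SL, against 321, 301, 295 and 270.3 CPM in iPrE. Its change was -2.98 (SE 0.43, adjusted p = 1.06e-05), and its level was 1.08 ± 0.420 CPM in E14_ESC (n = 3) and 7.80 ± 6.39 CPM in TG2A_ESC (n = 2), mean ± SD. The 3 knockout libraries lay close together, above every wild-type library and below every iPrE library. Gata4, its close relative, had 38.5, 33.2 and 33.2 CPM in KO10_SL, against 211, 265, 356 and 269 CPM in iPrE, a change of -2.96 (SE 0.44, adjusted p = 1.42e-05). Sox17, an HMG-box factor of endoderm, had 27.3, 23.2 and 24.5 CPM in KO10_SL, against 224, 250.4, 254 and 193 CPM in iPrE, a change of -3.20 (SE 0.38, adjusted p = 9.62e-07). Both genes again kept all knockout libraries below all iPrE libraries, as 31.7% of all tested genes did. The forkhead factors Foxq1 (-3.89) and Foxa2 (-3.37) and the HMG-box factor Sox7 (-2.51) were also lower. Hhex, a homeobox gene of anterior visceral endoderm, was lower by less, at -1.07 (SE 0.26, adjusted p = 0.00132), and its change was -0.60 and not called against iPrE1 alone. Its 5.16, 6.78 and 6.57 CPM in KO10_SL lay within the range of the E14_ESC libraries, 4.55 to 7.69 CPM, so 7 of the 10 regulators were called above both wild-type sets and below iPrE.

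2 further regulators did not follow this order. Hnf4a, a nuclear receptor of visceral endoderm, had 3.33, 2.12 and 2.59 CPM in KO10_SL, against 70.4, 28.2, 27.9 and 77.9 CPM in iPrE, a change of -4.25 (SE 0.46, adjusted p = 3.52e-07) that was -3.38 without the libraries with more fibroblast RNA. It was lower in KO10_SL than in E14_ESC (-1.29), and its change against TG2A_ESC was 1.39 and not called. The iPrE libraries of each line differed from each other here, with the higher value in iPrE1 replicate 1 and iPrE2 replicate 2. Eomes, a T-box factor of trophoblast, visceral endoderm and streak, was the member higher in KO10_SL, with 9.30, 10.9 and 11.3 CPM, against 3.23, 2.42, 1.92 and 2.30 CPM in iPrE, a change of 2.10 (SE 0.33, adjusted p = 2.19e-05).

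**Figure D2:**
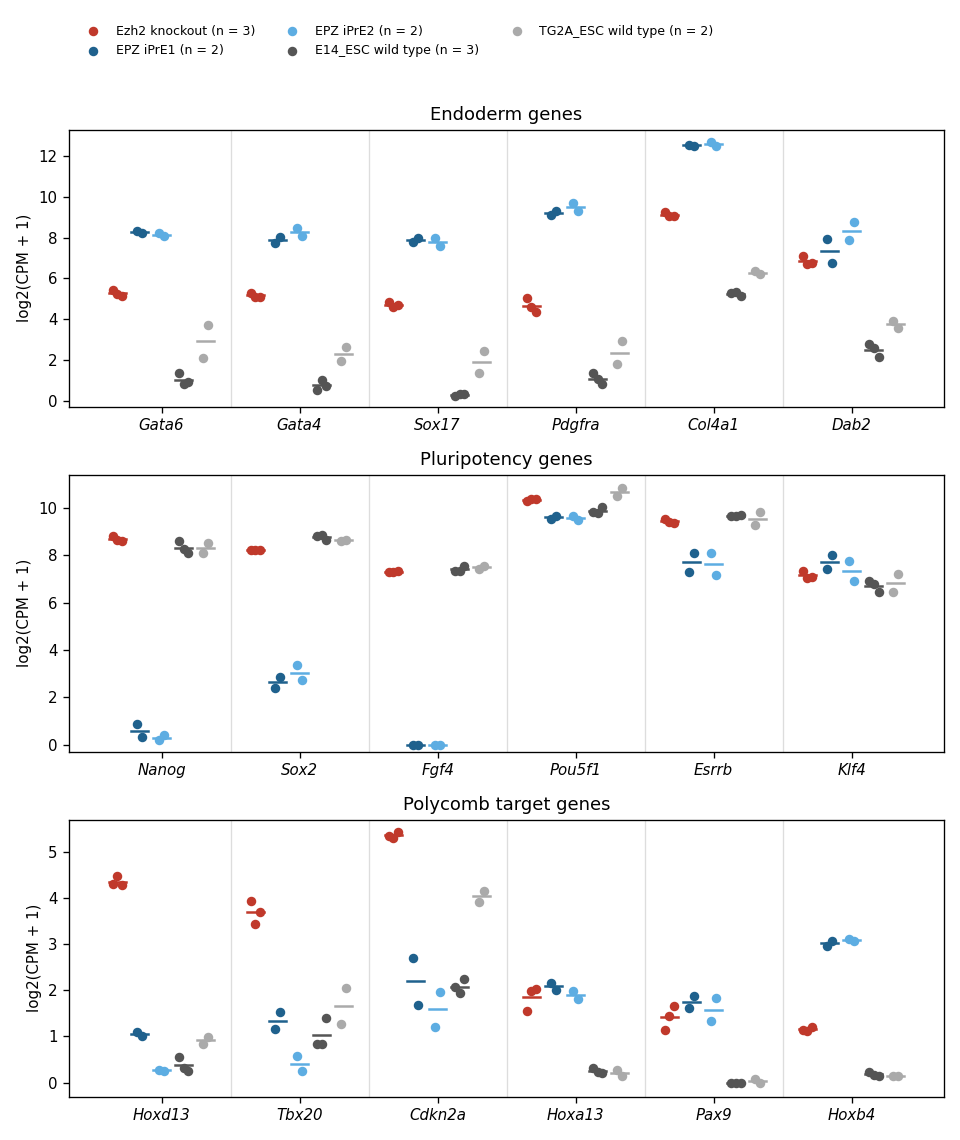
Levels as log2(CPM + 1) per library for 6 endoderm, 6 pluripotency and 6 Polycomb target genes, with 1 point per library, a short line at the mean of each set, and KO10_SL left of iPrE1, iPrE2, E14_ESC and TG2A_ESC. Gata6 lies at 34.2 to 42.4 CPM in KO10_SL, below its 270.3 to 321 CPM in iPrE and above both wild-type sets, whereas Nanog is at 388 to 454 CPM in KO10_SL and at 0.137 to 0.845 CPM in iPrE.

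Receptors and uptake proteins of PrE showed the same order with 3 exceptions. Of the 9 genes of this list, 6 were lower in KO10_SL, 1 was higher and 2 were not called, with a median of -2.28. Pdgfra, the PDGF receptor used to sort PrE, had 31.5, 22.9 and 19.3 CPM in KO10_SL, against 554, 628, 821 and 632 CPM in iPrE, a change of -4.74 (SE 0.33, adjusted p = 1.91e-09). It stood at 3.73% of the iPrE mean, the lowest share among the endoderm genes that lay between wild type and iPrE, while both wild-type sets were lower still. Fgfr2, an FGF receptor (-3.09), Srgn, a secreted proteoglycan (-3.47), and Amn, a partner of cubilin (-2.28), were lower as well. Cubn, the uptake receptor cubilin, changed by -2.7 (SE 0.84, adjusted p = 0.00857), which became -1.66 and was not called without iPrE1 replicate 1 and iPrE2 replicate 2. Dab2, a clathrin adaptor that serves as a PrE marker, had 136, 103 and 107 CPM in KO10_SL, against 239.7, 105, 232 and 430.4 CPM in iPrE. These groups overlapped, and the change of -1.05 (SE 0.37, adjusted p = 0.0179) lost its call in several settings, with -0.44 when both libraries were left out. Lrp2, the uptake receptor megalin, was the member higher in KO10_SL, with 184, 141 and 147 CPM, against 28.9, 58.1, 127 and 84.0 CPM in iPrE, a change of 1.22 (SE 0.27, adjusted p = 7.91e-04). Its change was 1.86 against iPrE1 and 0.58, not called, against iPrE2. Lrp2 was not called against wild type, with changes of 0.25 against E14_ESC and 0.83 against TG2A_ESC. The activin antagonist Fst (-0.51, 95% interval -1.35 to 0.33) and the surface protein Cd24a (-0.21, -0.74 to 0.33) were not called. For Fst the lines went different ways, with 0.66, not called, against iPrE1 and -1.69 (adjusted p = 0.00362) against iPrE2.

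All 12 basement membrane genes were lower in KO10_SL than in iPrE, with a median change of -2.16. The collagen IV chain Col4a1 had 614, 537 and 529 CPM in KO10_SL, against 5925, 5856, 6529 and 5815 CPM in iPrE, a change of -3.43 (SE 0.29, adjusted p = 2.14e-08), and E14_ESC held 37.3 ± 2.55 CPM. For Col4a1, the knockout libraries thus lay well above the wild-type libraries and well below the iPrE libraries, and 7 of the 12 genes were called above both wild-type sets. Its partner Col4a2 (-3.30), the collagen chaperone Serpinh1 (-3.07), the laminin chains Lamb1 (-2.99), Lama1 (-2.19) and Lamc1 (-1.23), perlecan (Hspg2, -2.25), the collagen prolyl hydroxylase P4ha2 (-2.13), the matrix glycoprotein Sparc (-2.04) and the linker protein Nid1 (-1.34) were lower as well. Of these, Lamc1, Hspg2 and Nid1 were not called against either wild-type set, with changes of 0.27, 0.07 and -0.29 against E14_ESC. Agrn, the proteoglycan agrin (-0.91), and Nid2, a second nidogen (-0.30), differed least. Neither was called against iPrE2 alone, where their changes were -0.35 and 0.20. Agrn was not called against wild type, and Nid2 was called below both wild-type sets, at -0.69 against E14_ESC and -0.33 against TG2A_ESC.

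Parietal and visceral genes were mixed. Of 6 parietal endoderm genes, 3 were lower in KO10_SL, which were the retinol receptor Stra6 (-4.39), the transcription factor Snai1 (-3.16) and the parathyroid hormone receptor Pth1r (-2.08). Plat, tissue plasminogen activator, was higher at 1.15 (SE 0.43, adjusted p = 0.0242), with the call lost when single libraries were left out. Thbd, thrombomodulin, changed by 1.60 (95% interval 0.06 to 3.14) and the intermediate filament Vim by 1.44 (-0.34 to 3.22), and neither was called. Vim was called at 3.57 without the 2 libraries with more fibroblast RNA. Of 11 visceral endoderm genes, 7 passed the filter, and of these 4 were higher and 3 lower in KO10_SL. The lower ones were the Wnt antagonist Dkk1 (-3.89), the lipid carrier Apoe (-2.38) and the signal Ihh (-0.98), whose call was lost without KO10_SL replicate 1 or 3. Rbp4, which carries retinol, had 5.97, 7.64 and 7.46 CPM in KO10_SL, against 3 counts over the 4 iPrE libraries, a ratio of 130 (95% exact counting interval 44.3 to 633). The Nodal antagonist Lefty1 (4.06, SE 0.55, adjusted p = 5.12e-06) and the apolipoprotein Apob (3.62, SE 0.52, adjusted p = 1.45e-05) were higher as well. Apob was 4.77 without iPrE2 replicate 2 alone and 5.39 without both libraries, and Lefty1 was 4.67 without both. The transferrin gene Trf, also higher, had 10.2, 9.56 and 9.20 CPM in KO10_SL, against 0.230, 0, 0 and 0.197 CPM in iPrE. Its 6 iPrE counts all came from iPrE1 replicate 1 and iPrE2 replicate 2. E14_ESC against iPrE also gave 4 of the 7 tested visceral genes higher and 3 lower. The mean of Trf was no higher in KO10_SL than in either wild-type set, and that of Lefty1 was lower than in E14_ESC. Rbp4 and Apob had higher means in KO10_SL than in both sets. Of the 7 genes, 1 was called above both wild-type sets and above iPrE. Afp, Ttr, Apoa1 and Cer1 did not pass the filter.

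Set beside wild-type ESCs, most of the tested endoderm genes had a position that few of all genes shared. KO10_SL was called above both E14_ESC and TG2A_ESC and below iPrE for 25 of the 44 endoderm genes, against 3.58% of all genes tested. No pluripotency gene and 2 Polycomb targets, Hoxb4 and Nkx6-1, had that position. The lists were chosen with earlier results of these data known, so these shares describe the lists. Over the 25 genes, the knockout mean was 3.73 to 49.1% of the iPrE mean, with a median of 12.5%. The lowest share was that of Pdgfra and the highest that of Ihh. The medians of the same genes were 0.94% in E14_ESC, 2.04% in TG2A_ESC and 0.91% in the clone after Ezh2 rescue (n = 2). In that rescued clone the mean Ezh2 level was 372% of the iPrE mean, against 130% in E14_ESC and 143% in TG2A_ESC. Without iPrE1 replicate 1 and iPrE2 replicate 2 the count was 23. Over all genes, KO10_SL was called higher than E14_ESC for 25.8% and lower for 22.7%, and higher than TG2A_ESC for 13.6% and lower for 14.1%. These contrasts share the knockout libraries with the one against iPrE.

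**Figure D3:**
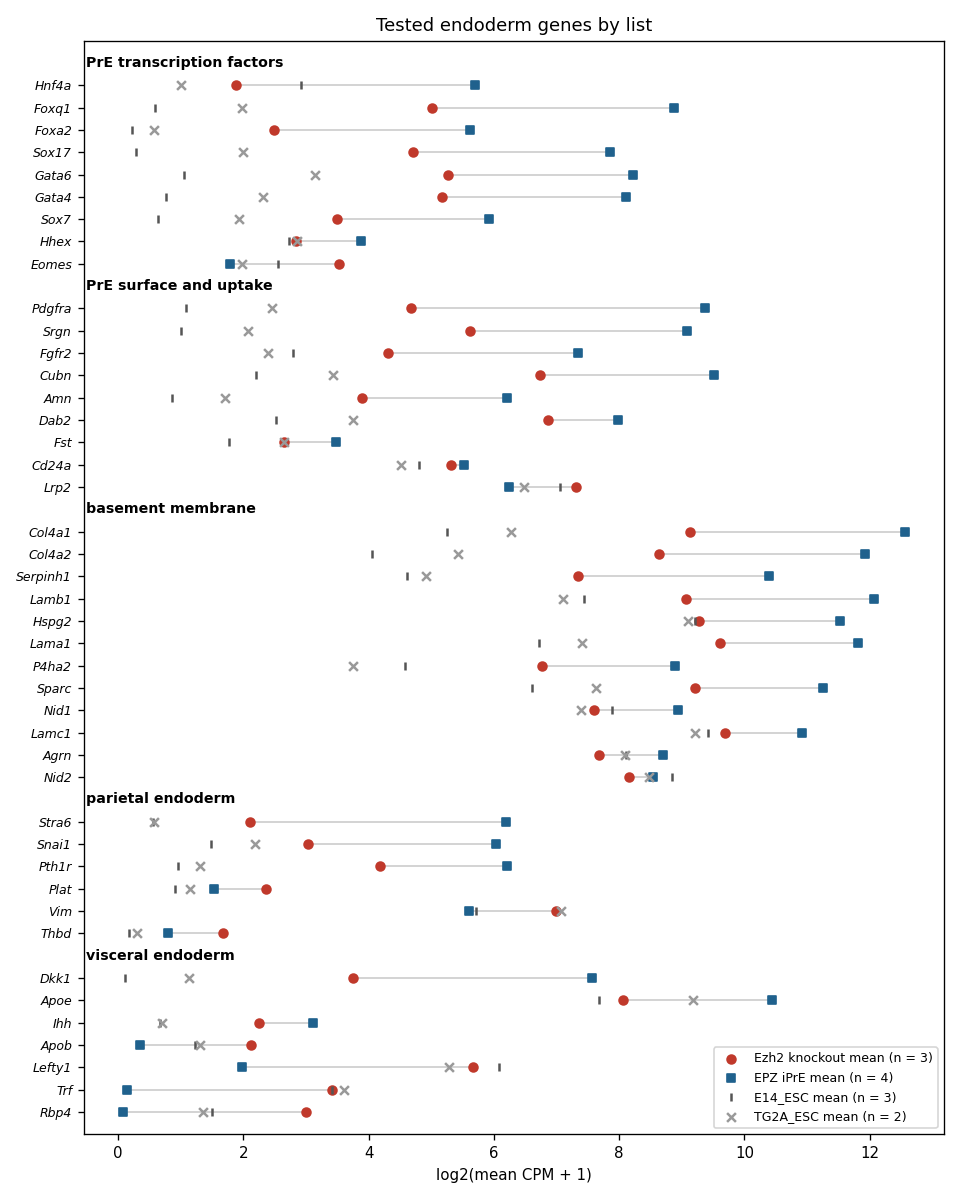
Mean level as log2(mean CPM + 1) of tested endoderm genes (rows, by list) in KO10_SL (circles), iPrE (squares), E14_ESC and TG2A_ESC, with a grey line joining KO10_SL and iPrE. For the genes called between wild type and iPrE, KO10_SL is at 3.73 to 49.1% of the iPrE mean, while for Eomes and Rbp4 KO10_SL has the highest mean of the 4.

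Pluripotency genes were mostly higher in KO10_SL than in iPrE, as they were in wild-type E14_ESC. For KO10_SL against E14_ESC, 24 of 36 were not called, 8 were higher and 4 lower, beside 25.8% and 22.7% of all genes. Against TG2A_ESC 27 were not called, 1 was higher and 8 lower, beside 13.6% and 14.1%. The share not called against TG2A_ESC was near that of all genes. Wild-type E14_ESC against iPrE gave 26 higher and 4 lower, with a median of 1.85, beside 6429 and 5496 of all genes. Nanog, a core homeobox factor, had 454, 403 and 388 CPM in KO10_SL, against 0.845, 0.234, 0.137 and 0.329 CPM in iPrE. The iPrE libraries thus held almost none, and the change was 10.15 (SE 0.30, adjusted p = 9.83e-14), or 11.12 without the 2 libraries with more fibroblast RNA. Of 13 naive pluripotency genes, 6 were higher in KO10_SL, 1 was lower and 6 were not called, with a median of 1.4. Over all genes, 39.7% were higher and 32.5% lower. Zfp42, the naive marker REX1, had 782, 712 and 708 CPM in KO10_SL, against 52.4, 56.6, 56.5 and 50.9 CPM in iPrE, a change of 3.76 (SE 0.10, adjusted p = 4.38e-14). Esrrb, an orphan nuclear receptor, had 746, 680.2 and 664 CPM in KO10_SL, against 157, 274, 271 and 141 CPM in iPrE, a change of 1.73 (SE 0.30, adjusted p = 6.53e-05). All knockout libraries lay above all iPrE libraries for both genes, as for 39.4% of all genes tested, with smaller differences than that of Nanog. Klf2, a Krüppel-like factor (167 ± 8.74 CPM in KO10_SL and 0.399 ± 0.207 CPM in iPrE), Nr5a2, a nuclear receptor (67.3 ± 4.78 CPM and 0.432 ± 0.329 CPM in the same order), and Prdm14, a PR-domain regulator (43.5 ± 1.13 CPM and 0.185 ± 0.125 CPM), completed the higher naive genes (mean ± SD, n = 3 and 4). Prdm14 was the single pluripotency gene of the 36 called above both wild-type sets and iPrE, a position held by 4.95% of all genes.

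The other naive factors were lower in KO10_SL or not called. Klf5, a Krüppel-like factor, was the lower one, with 145, 136 and 138 CPM in KO10_SL, against 313, 477, 369.9 and 232 CPM in iPrE, a change of -1.30 (SE 0.21, adjusted p = 3.96e-05). Klf4, one of the reprogramming factors, had 159, 129 and 135 CPM in KO10_SL, against 168, 257, 216 and 119.9 CPM in iPrE, and was not called, with a change of -0.42 and a 95% interval of -1.21 to 0.36. The knockout values fell within the range of the iPrE values. Tbx3, a T-box factor downstream of LIF, changed by -0.04 (-0.73 to 0.65), Tfcp2l1, a grainyhead-family factor, by 0.75 (adjusted p = 0.0559), and Dppa3, a maternal factor, by 1.4 (adjusted p = 0.0545). Nr0b1 (-0.09) and Tcl1 (0.32) were not called. Dppa3 and Tfcp2l1 were both called under RLE scaling, at 1.45 and 0.81.

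All 12 core pluripotency genes were higher in KO10_SL, with a median of 1.85 and a wide range. Fgf4, the FGF ligand of the epiblast, had 155, 156 and 159 CPM in KO10_SL, against 0 counts in all 4 iPrE libraries, at least 2906-fold higher by the limit of 3 counts over the group. Eras, an ESC-specific Ras, had 51.7, 53.2 and 52.6 CPM in KO10_SL, against 0 counts in iPrE, at least 973-fold higher. Tdgf1, a Nodal co-receptor, had 629, 626 and 611 CPM in KO10_SL, against 5 counts over the iPrE libraries. These transcripts were close to absent from iPrE. Sox2 had 298, 293 and 293 CPM in KO10_SL, against 4.30, 6.32, 9.41 and 5.53 CPM in iPrE, a change of 5.55 (SE 0.14, adjusted p = 1.37e-14). Pou5f1, which encodes OCT4, had 1255, 1325 and 1335 CPM in KO10_SL, against 741, 801, 807 and 713 CPM in iPrE, a change of 0.77 (SE 0.15, adjusted p = 1.75e-04). OCT4 transcript was thus kept in iPrE at a somewhat lower level than in the knockout, whereas little Sox2 and Nanog was left. The ESC markers Dppa5a (2.33), Utf1 (2.25), L1td1 (1.45) and Dppa4 (1.19) and the zinc finger factor Sall4 (0.65) lay between. Lin28a, an RNA-binding repressor of let-7, was called at 1.0 (SE 0.40, adjusted p = 0.0339) with overlapping libraries, and the call was lost in most settings that left out a library, with 0.32 when both were left out.

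Among 11 formative genes, 8 were higher in KO10_SL and 3 were not called, with a median of 2.72. Otx2, a homeobox factor of the epiblast, had 20.8, 19.7 and 18.8 CPM in KO10_SL, against 0.691, 0.234, 2.20 and 2.04 CPM in iPrE, a change of 4.31 (SE 0.49, adjusted p = 6.63e-07). Foxd3, a forkhead factor, had 33.8, 30.8 and 29.2 CPM in KO10_SL, against 0.230, 0.0780, 0.0687 and 0.132 CPM in iPrE, a change of 7.89 (SE 0.25, adjusted p = 2.26e-13). Otx2 and Foxd3 had no overlap between groups. The change of Otx2 was 5.39 against iPrE1 and 3.22 against iPrE2, and that of Foxd3 was 8.61 without both libraries with more fibroblast RNA. Zic2 (2.28), a zinc finger factor, was also higher, and Pou3f1, a POU factor, was 2.72, or 3.48 without iPrE1 replicate 2. Fgf5, a marker of the later epiblast, had 0.731, 0.409 and 0.848 CPM in KO10_SL, against 0 counts in iPrE. The de novo methyltransferases Dnmt3a (-0.11) and Dnmt3b (-0.41) and the bHLH factor Tcf15 (0.36) were not called. Sox2 was above iPrE and below both wild-type sets, a position held by 2.54% of all genes.

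Genes that Polycomb is known to keep silent in ESCs split into those above iPrE and those that both groups shared. The list holds textbook targets but was chosen with earlier results of these data known, and no chromatin data were used. Of 26 non-Hox targets that passed the filter, out of 28, 17 were higher in KO10_SL, 3 were lower and 6 were not called, with a median of 3.50. Wild-type E14_ESC against iPrE gave 9 of the 26 higher and 9 lower, with a median of 0.39, beside 6429 and 5496 of all genes. For 8 of the 26, KO10_SL was called above both wild-type sets and above iPrE. Cdkn2a, the cell cycle inhibitor locus that encodes p16 and p19, had 39.5, 38.0 and 41.8 CPM in KO10_SL, against 5.53, 2.18, 1.30 and 2.90 CPM in iPrE, a change of 3.80 (SE 0.35, adjusted p = 5.71e-08). Tbx20, a T-box factor of the heart, had 14.2, 9.85 and 12.0 CPM in KO10_SL, against 1.23, 1.87, 0.481 and 0.197 CPM in iPrE, a change of 4.04 (SE 0.46, adjusted p = 6.96e-07). Neither gene overlapped between the groups, and KO10_SL was also called above both wild-type sets for each. Cdkn2a was 4.55 without the 2 libraries with more fibroblast RNA, and Tbx20 was 2.95 against iPrE1 and 5.13 against iPrE2. Pax3 and Pax7, paired-box factors of neural crest and muscle, and Cdx4, a caudal factor, had 0 counts in iPrE, which put them at least 12.0-, 14.3- and 11.7-fold higher in KO10_SL. Isl1, a LIM homeobox factor, had 1.91, 1.76 and 1.19 CPM in KO10_SL, against 3 counts in iPrE, a ratio of 30.1 (95% exact counting interval 10 to 148).

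Other targets were as high or higher in iPrE. Gata2, a GATA factor of blood and trophoblast, had 2.36, 2.41 and 2.42 CPM in KO10_SL, against 18.5, 12.2, 4.46 and 4.54 CPM in iPrE, a change of -1.79 (SE 0.28, adjusted p = 2.26e-05). It was -2.68 against iPrE1 and -0.91 against iPrE2. Nkx6-1, a homeobox factor of pancreas and ventral neural tube, had 0.488, 0.531 and 0.636 CPM in KO10_SL, against 2.92, 2.18, 1.24 and 1.38 CPM in iPrE, a change of -1.72 (SE 0.45, adjusted p = 0.00308), and was near 0 in both wild-type sets. Pax9 had 1.22, 1.72 and 2.16 CPM in KO10_SL, against 2.07, 2.65, 1.51 and 2.57 CPM in iPrE. Its groups overlapped and it was not called (-0.37, 95% interval -1.25 to 0.51). Lhx2 (0.38, -0.50 to 1.25) was not called either, and both were above both wild-type sets in KO10_SL.

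Of 39 Hox genes, 33 passed the filter, and of these 19 were higher in KO10_SL, 1 was lower and 13 were not called, with a median of 1.52. The difference was largest in the HoxD cluster by summed level. The 9 HoxD genes summed to 36.7 CPM in KO10_SL and 5.38 CPM in iPrE, the 11 HoxA genes to 61 and 40.3 CPM, the 10 HoxB genes to 16.5 and 12 CPM, and the 9 HoxC genes to 26.6 and 15.9 CPM, in the same order. Hoxd13, at the 5′ end of its cluster, had 18.6, 21.1 and 18.5 CPM in KO10_SL, against 1.15, 1.01, 0.206 and 0.197 CPM in iPrE, a change of 5.35 (SE 0.37, adjusted p = 1.46e-09). The groups did not overlap, and the lines differed, with 4.15 against iPrE1 and 6.54 against iPrE2. Hoxd11 had 1.54, 4.21 and 3.31 CPM in KO10_SL, against 3 counts in iPrE, a ratio of 55.9 (95% exact counting interval 18.9 to 273). Hoxd10 had 2.32, 1.80 and 2.16 CPM, against 2 counts in iPrE, a ratio of 58.1 (95% exact counting interval 15.8 to 485). Hoxc11 (2.85, SE 0.45, adjusted p = 3.26e-05), Hoxb7 (2.86, SE 0.55, adjusted p = 2.06e-04), Hoxa3 (1.98, SE 0.56, adjusted p = 0.00449) and Hoxa7 (1.52, SE 0.33, adjusted p = 5.79e-04) were higher in KO10_SL by smaller amounts. Hoxb7 was 2.13 against iPrE1 and 3.59 against iPrE2.

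Some Hox genes did not separate the knockout from iPrE at all. Hoxa10 had 23.8, 22.1 and 17.1 CPM in KO10_SL, against 25.5, 18.8, 13.2 and 13.3 CPM in iPrE, with a change of 0.29 that was not called (95% interval -0.35 to 0.94), and 0.0648 ± 0.0605 CPM in E14_ESC. Hoxa11 had 15.2, 15.2 and 12.5 CPM in KO10_SL, against 17.1, 7.18, 8.72 and 12.3 CPM in iPrE, with a change of 0.34 (-0.62 to 1.29), and 0.0399 ± 0.0690 CPM in E14_ESC. Both genes overlapped between the knockout and iPrE and stood far above wild type in both. Hoxa13 (-0.16, -0.88 to 0.56) and Hoxc4 (-0.10, -0.76 to 0.56) were not called either. Hoxb4 was the Hox gene called lower, with 1.22, 1.19 and 1.31 CPM in KO10_SL, against 6.76, 7.41, 7.62 and 7.30 CPM in iPrE, a change of -2.55 (SE 0.24, adjusted p = 5.48e-08). By position along the cluster, 9 of 18 genes of paralog groups 1 to 8 and 10 of 15 genes of groups 9 to 13 were higher in KO10_SL. Their medians were 1.45 and 1.60, and 39.7% of all genes were higher. Against iPrE1 alone 10 Hox genes were called higher, beside 35% of all genes, and against iPrE2 alone 18, beside 36.1%. The median change of the Hox list was 1.01 against iPrE1 and 1.98 against iPrE2.

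**Figure D4:**
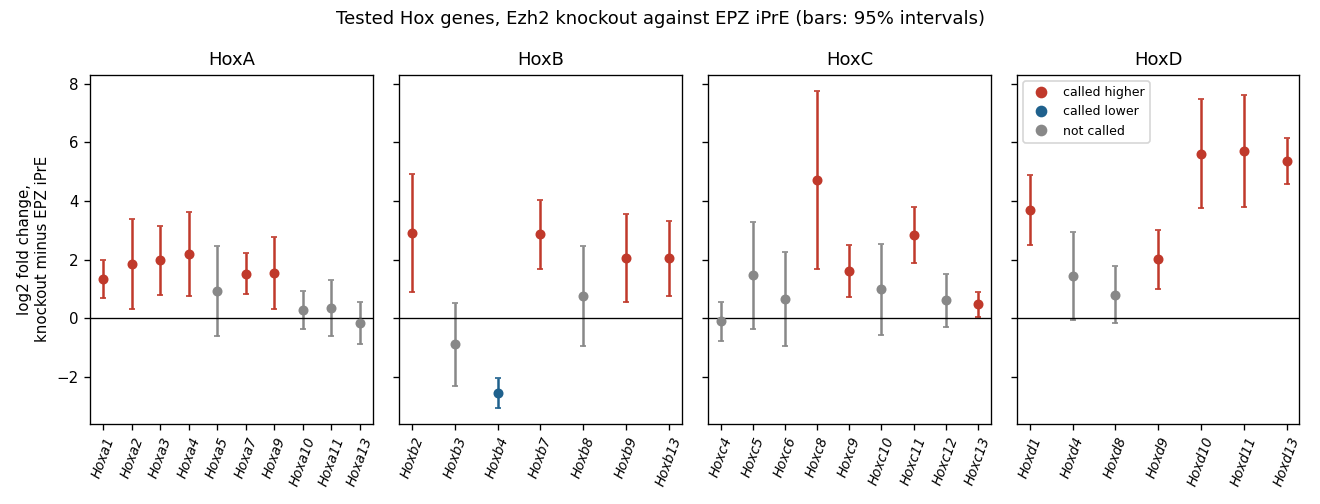
Log2 fold change of the 33 tested Hox genes in KO10_SL over iPrE (y axis), by cluster and in paralog order, with 95% intervals, coloured by call. Hoxd13 stands at 5.35 and Hoxb4 at -2.55, and the intervals of Hoxa10, Hoxa11 and Hoxa13 include 0.

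Placed against wild type, the Polycomb targets held several positions. For 24 of 59, KO10_SL was called above both wild-type sets and above iPrE, against 4.95% of all genes. For 12 of 59 it was called above both wild-type sets and not called against iPrE, against 1.87% of all genes, and 10 of those 12 were Hox genes. The first count was 17 when iPrE1 was the only PrE line and 18 to 23 when single libraries were left out. The remaining targets held other positions or were not called in the same direction against both wild-type sets. Against TG2A_ESC, 38 of 59 were higher, 2 were lower and 19 were not called, beside 13.6% higher and 14.1% lower of all genes. The list was chosen with earlier results of these data known, so these shares describe the list.

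The sequences before the start sites of 4 genes are shown for their CG content. Hoxd13 and Tbx20 were chosen as targets high in KO10_SL, Zscan4c as a gene high there that is on no Polycomb list, and Pdgfra as an endoderm gene low there. The 250 bases upstream of each annotated start are given 5′ to 3′ on the gene's strand, from RefSeq on GRCm38.p6, with each CG in capitals. They are chr2:74667975-74668224 (plus strand) for Hoxd13, chr9:24774304-24774553 (minus strand) for Tbx20, chr7:11005495-11005744 (plus strand) for Zscan4c and chr5:75152001-75152250 (plus strand) for Pdgfra.
Hoxd13: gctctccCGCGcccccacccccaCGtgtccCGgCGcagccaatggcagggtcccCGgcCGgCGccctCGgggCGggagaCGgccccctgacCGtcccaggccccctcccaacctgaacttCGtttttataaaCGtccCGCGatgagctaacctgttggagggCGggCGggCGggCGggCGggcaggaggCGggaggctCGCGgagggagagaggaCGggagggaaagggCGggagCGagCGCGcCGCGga
Tbx20: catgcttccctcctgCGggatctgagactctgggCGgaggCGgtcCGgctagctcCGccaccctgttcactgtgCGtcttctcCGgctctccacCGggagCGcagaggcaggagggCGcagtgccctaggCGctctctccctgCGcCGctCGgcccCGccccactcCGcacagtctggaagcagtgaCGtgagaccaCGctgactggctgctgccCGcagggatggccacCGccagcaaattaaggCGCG
Zscan4c: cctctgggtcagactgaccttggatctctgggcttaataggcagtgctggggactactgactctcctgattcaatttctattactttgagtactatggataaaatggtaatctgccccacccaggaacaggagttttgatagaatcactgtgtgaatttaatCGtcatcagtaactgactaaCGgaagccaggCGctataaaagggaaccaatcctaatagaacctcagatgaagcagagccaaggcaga
Pdgfra: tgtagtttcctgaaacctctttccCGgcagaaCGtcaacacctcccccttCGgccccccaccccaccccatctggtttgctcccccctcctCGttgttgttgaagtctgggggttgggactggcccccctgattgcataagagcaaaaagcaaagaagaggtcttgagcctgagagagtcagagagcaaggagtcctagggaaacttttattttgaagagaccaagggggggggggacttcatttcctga
Hoxd13 held 31 CG, a number reached by 8.7% of the promoters of tested genes, and Tbx20 held 22, reached by 26.5%. Pdgfra held 4, reached by 89.3%, and Zscan4c held 3, reached by 92.9%. CG reads the same on both strands and cannot overlap itself. A promoter was found for 12459 of 17547 tested genes, of which 98.6% held at least 1 CG, with a median of 15. Over the 22 of 39 Hox promoters found the median was 12, over the 21 of 28 other Polycomb targets it was 14, and over the 9 of 12 basement membrane genes it was 20. Hoxd13 and Tbx20 thus held more CG than the middle of their own lists. Fewer than 80% of each of these lists had a promoter, so a comparison of the lists is void. The counts describe the sequences and were not related to any measure of binding.

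Polycomb subunit genes lay on both sides. Of 12 PRC2 genes, 8 were higher in KO10_SL and 4 were lower, Ezh2 among them, beside 39.7% and 32.5% of all genes. Ezh1, the other H3K27 methyltransferase, had 16.8, 16.3 and 15.9 CPM in KO10_SL, against 100.4, 151, 132 and 124 CPM in iPrE, a change of -2.96 (SE 0.17, adjusted p = 2.35e-10). It was also below both wild-type sets, with 44.8 ± 3.90 CPM in E14_ESC, so neither enzyme gene was as high in the knockout as in iPrE. The core subunit Suz12 (-0.71, SE 0.15, adjusted p = 6.28e-04) and the histone chaperone Rbbp7 (-1.29, SE 0.15, adjusted p = 6.27e-07) were lower, while the core subunit Eed (0.87, SE 0.12, adjusted p = 5.76e-06) and Rbbp4 (0.93, SE 0.09, adjusted p = 9.19e-08) were higher. The accessory subunits Jarid2 (1.33), Epop (1.86) and Aebp2 (0.58) were higher. Phf19, a Tudor-domain accessory subunit, had 3.98, 4.29 and 4.54 CPM in KO10_SL, against 0.384, 0.468, 0.0687 and 0.329 CPM in iPrE. Mtf2 (0.25) and Phf1 (0.51) were higher by little and lost the call when both libraries with more fibroblast RNA were left out.

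Of 16 PRC1 genes, 6 were higher, 6 were lower and 4 were not called, shares near those of all genes. Phc1, a polyhomeotic subunit, had 285, 284 and 280.5 CPM in KO10_SL, against 21.1, 23.0, 18.4 and 18.0 CPM in iPrE, a change of 3.82 (SE 0.07, adjusted p = 1.23e-15). Its paralog Phc3 went the other way, with 12.6, 12.1 and 10.2 CPM in KO10_SL, against 72.9, 63.4, 83.6 and 96.7 CPM in iPrE, a change of -2.75 (SE 0.11, adjusted p = 4.23e-12). Pcgf5, a RING-finger subunit of variant PRC1, was lower at -3.06 (SE 0.20, adjusted p = 7.64e-10), and Pcgf2 of canonical PRC1 was higher at 1.11 (SE 0.11, adjusted p = 1.23e-07). Among the chromobox readers, Cbx2 (1.29), Cbx6 (0.99) and Cbx7 (1.45) were higher. Cbx7 was 0.47 against iPrE1 and 2.43 against iPrE2. The catalytic subunits Rnf2 (-0.03, 95% interval -0.22 to 0.16) and Ring1 (-0.31, -0.65 to 0.03) were not called.

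**Figure D5:**
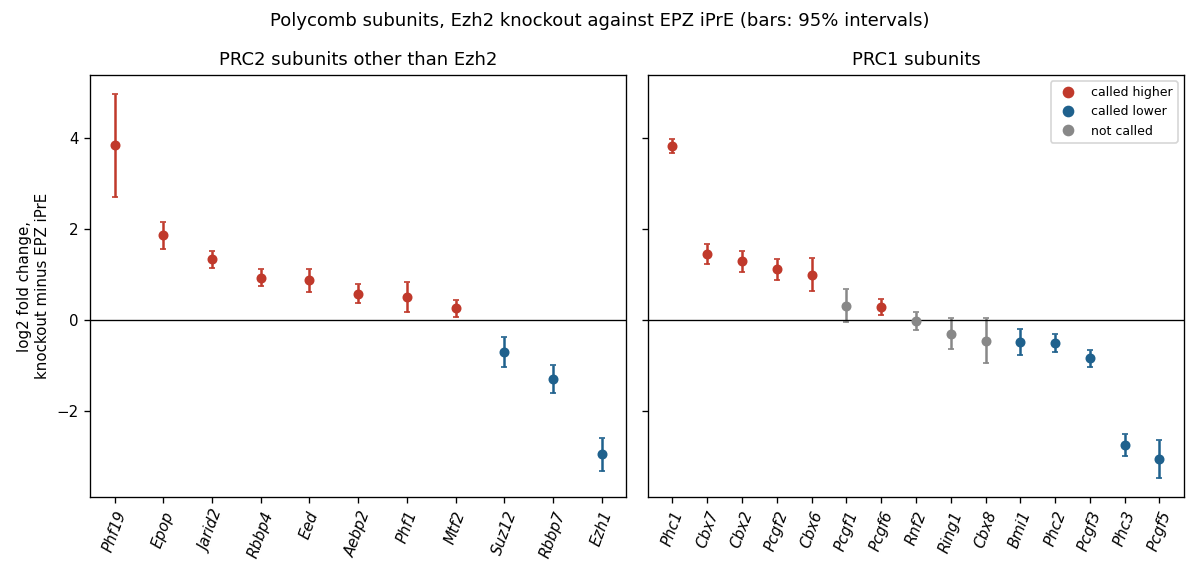
Log2 fold change of tested PRC2 subunit genes other than Ezh2 and PRC1 subunit genes in KO10_SL over iPrE (y axis), with 95% intervals, coloured by call. Phf19 and Phc1 are highest, at 3.83 and 3.82, and Pcgf5, Ezh1 and Phc3 are lowest, at -3.06, -2.96 and -2.75.

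Genes of the FGF and LIF pathways, on which PrE and ESCs depend, were described next, beside 39.7% of all genes higher and 32.5% lower. Of 13 FGF and ERK genes tested, out of 14, 8 were higher in KO10_SL, 3 were lower and 2 were not called. Egr1, an immediate early target of ERK, had 5.12, 4.90 and 5.72 CPM in KO10_SL, against 362, 288, 169.8 and 231 CPM in iPrE, a change of -5.60 (SE 0.47, adjusted p = 1.42e-08). The ERK phosphatase Dusp4 was lower too, at -2.31 (SE 0.31, adjusted p = 4.28e-06), or -1.49 without the 2 libraries with more fibroblast RNA. The ETS factor Etv5 had 305, 274 and 268 CPM in KO10_SL, against 63.5, 32.1, 30.1 and 48.4 CPM in iPrE, a change of 2.7 (SE 0.22, adjusted p = 1.32e-08), so targets of the pathway lay on both sides. The receptor Fgfr1 was higher (2.39, SE 0.55, adjusted p = 9.78e-04) while Fgfr2, above, was lower. Of 7 LIF and STAT3 genes, 2 were higher, 4 were lower and 1 was not called. The LIF receptor Lifr (-1.03, SE 0.19, adjusted p = 1.11e-04) and its partner Il6st (-0.73, SE 0.11, adjusted p = 1.04e-05) were lower in KO10_SL. The homeobox gene Gbx2, a STAT3 target, was higher at 3.60 (SE 0.21, adjusted p = 1.80e-10).

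Lists of other lineages differed in how they stood, beside 39.7% of all genes higher and 32.5% lower. All 7 tested genes of the 2-cell-like list, out of 8, were higher in KO10_SL, with a median of 8.06. Zscan4c, a zinc finger gene of the 2-cell embryo, had 82.2, 102 and 95 CPM in KO10_SL, against 1.15, 0, 0.275 and 0.132 CPM in iPrE, with 4.97 ± 4.93 CPM in E14_ESC. The 8 genes summed to 241.9, 283 and 285.3 CPM in KO10_SL and to 0.27 to 3.23 CPM in iPrE. These families have near-identical copies between which reads may be split, so single members are uncertain. Of 7 neuroectoderm genes, 5 were higher and 2 were not called. Tubb3, a neuronal tubulin, had 103, 110.4 and 107 CPM in KO10_SL, against 0.0768, 0.780, 0.275 and 0 CPM in iPrE, and 84.4 ± 23.0 CPM in E14_ESC. Of 7 streak and mesoderm genes, 4 were higher, 1 was lower and 2 were not called, and the TGF-beta ligand Nodal was at 4.98 (SE 0.34, adjusted p = 1.19e-09). Of 8 trophoblast genes, 4 were higher, 2 were lower and 2 were not called, yet the list of 10 summed to 140.9 to 205.5 CPM in KO10_SL and to 236.7 to 518.2 CPM in iPrE. The keratins Krt8 (-1.22, SE 0.28, adjusted p = 9.70e-04) and Krt18 (-1.24, SE 0.34, adjusted p = 0.00389), which PrE also expresses, were lower in KO10_SL, and Krt18 was -0.86 and not called with iPrE2 as the only PrE line. Tfap2a, an AP-2 factor, was higher at 3.24 (SE 0.38, adjusted p = 9.73e-07).

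Outside the lists, the genes of at least 10 CPM with the largest differences were taken by rule. Among those higher in KO10_SL, Khdc3, a maternal-effect gene, had 102, 93.9 and 85.9 CPM and 0 counts in iPrE, at least 1741-fold higher. Dmrt1, a germline regulator, had 44.2, 40.6 and 39.3 CPM and 0 counts in iPrE, at least 767-fold higher. Both were at similar levels in wild-type ESCs, with 72.2 ± 3.76 CPM and 26.5 ± 11.2 CPM in E14_ESC. Uchl1, a neuronal ubiquitin hydrolase, had 139, 162 and 163 CPM in KO10_SL, against 3 counts in iPrE, a ratio of 2870.0 (95% exact counting interval 981 to 13900.0). The 10 genes so taken as lower in KO10_SL were of several kinds. They were tenascin C (Tnc, -7.48), the collagen chain Col6a5 (-7.27), thrombospondin 2 (Thbs2, -7.25), lysyl oxidase (Lox, -6.45), the Y-linked demethylase Kdm5d (-6.48), the MHC class II chain H2-Eb1 (-5.88), the glycosyltransferase B4galnt2 (-5.94), the kinase Map3k21 (-5.75), and Il1bos (-6.99) and Platr15 (-6.59). Tnc and Lox were -5.10 and -3.76 and not called without iPrE1 replicate 1 and iPrE2 replicate 2, while Thbs2 was -5.86 and called. Col6a5 had 46.2, 62.9, 174 and 154 CPM in iPrE, with the higher values in both iPrE2 libraries. Of the 12 fibroblast genes, 8 were lower in KO10_SL, 3 were higher and 1 was not called, and of 5 macrophage genes tested, out of 8, 2 were lower and 3 were not called. The macrophage list summed to 4.96 to 6.87 CPM in KO10_SL and 9.44 to 31.7 CPM in iPrE, with Adgre1 and Tyrobp at 0 in KO10_SL. The part of fibroblast or macrophage RNA in these values was not tested. Among genes that lay between wild type and iPrE, as the endoderm genes did, Flt1, a VEGF receptor of endothelium and trophoblast, had 7.84, 13.5 and 12.8 CPM in KO10_SL, against 246, 130.1, 187 and 285 CPM in iPrE, a change of -4.21 (SE 0.26, adjusted p = 3.71e-10). Klb, the FGF co-receptor beta-klotho, had 21.1, 17.4 and 19.2 CPM in KO10_SL, against 202, 273, 322 and 215 CPM in iPrE, a change of -3.71 (SE 0.45, adjusted p = 1.30e-06).

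Few genes were called between the 2 iPrE lines, in a test of 2 against 2 libraries that does not show the lines to be alike. In iPrE2 against iPrE1, 307 genes were called higher (1.75%) and 379 lower (2.16%). Leaving out 1 library gave 137 to 293 and 191 to 363, and leaving out both libraries with more fibroblast RNA gave 66 and 103. Tbx20 and Otx2, above, differed by line in size without a call between the lines. Of the endoderm genes, Fst was higher in iPrE2 and Nid2 and Agrn were lower. Of the pluripotency genes Sall4 was higher, and of the Polycomb targets Hoxd13 and Gata2 were lower. The endoderm class held 30 lower and 7 higher genes in KO10_SL against iPrE1 alone, and 32 lower and 5 higher against iPrE2 alone, beside backgrounds of 30.2 and 35%, and of 30.6 and 36.1%. The Polycomb targets held 26 higher genes against iPrE1 alone and 35 against iPrE2 alone. As a set, the genes that separate KO10_SL from PrE therefore had similar counts for endoderm with either line, and fewer calls among Polycomb targets with iPrE1.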

How the data were processed

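The series holds RNA-seq of 22 mouse cell libraries in 10 groups. Tools in the submitters' processing notes are STAR 2.7.6a, Trim Galore and DESeq2, with build mm10. As to counting tool, annotation and strand, nothing is given in the sources used here. The labels name polyA RNA but also an rRNA depletion kit, so RNA selection is uncertain. Expected counts for each gene symbol, as the authors deposited them, come in 1 table, unscaled and without gene lengths. The plan had taken these for raw counts. Since in each library between 5.71 and 7.26% of the values were not whole, all were taken as estimated counts and rounded. Reads that match several genes were shared out by an unknown rule, so near-identical copies and overlapping genes are uncertain.

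The model was edgeR 4.0.16 in R 4.3.3. Of 55367 symbols, 17547 passed filterByExpr. After TMM scaling, all 22 libraries entered 1 quasi-likelihood fit with a term for each group (12 residual degrees of freedom). KO10_SL was contrasted with the mean of the iPrE lines, with Benjamini-Hochberg adjustment over all tested genes and calls below 0.05. The contrasts with E14_ESC and TG2A_ESC, and those with and between the single lines, came from the same fit. The SE was taken as the size of the change over the square root of F. A fold against a group at 0 is a bound from 3 counts over the group. Intervals on ratios of counts are exact, at 95%, and cover counting error only.

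The gene lists and the genes compared were chosen with earlier results of these data known. Genes named are list members, and outside the lists those that average 10 CPM or more in the higher group, with the largest change and no overlap between libraries. Counts were simulated for KO10_SL against iPrE, with 16459 of 16659 genes left unchanged. Of 100 genes changed by 1 on the log2 scale, 69 were recovered, and of 100 changed by 2, 89 were. There were 8 false calls among the unchanged genes. In the data, 39.7% of all tested genes were called higher in KO10_SL and 32.5% lower. How the test performs with so many differences was not tested. Alternatives were RLE scaling, DESeq2 1.42.0, no filter, only the 7 libraries compared, a replicate block, single lines, TG2A_ESC as wild type, and leaving out libraries. Where a line was left with 1 library, it was assumed to vary like the other groups. Replicate numbers were not taken as pairs. Some list members count in the totals but are not reported here by name.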

Additional observations from a re-analysis of the deposited data

Results flagged for a closer look

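In 4 genes, of 170 that averaged 1 CPM or more in iPrE, 1 of the 4 iPrE libraries stood apart from the other 3. Such a gap arises by chance in about 1 of 20 groups, and 4 of 170 is below that rate. Col4a1 was highest in iPrE2 replicate 1, at 6529 CPM. Dnmt3b was lowest in iPrE2 replicate 2, at 252.3 CPM, and Tcf15 was lowest in iPrE1 replicate 2, at 28.6 CPM. Cbx8, a chromobox reader of PRC1, was highest in iPrE1 replicate 2, at 14.9 CPM.

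For 13 of 263 genes described or listed, the change in KO10_SL differed according to which iPrE line it was set against, by the edgeR contrast of iPrE2 with iPrE1 (adjusted p below 0.05). This is near the share of all genes, 1.75% higher and 2.16% lower. The values are log2 differences, iPrE2 minus iPrE1. Among endoderm genes, Fst was at 2.35, Nid2 at -1.0 and Agrn at -1.12, so the first was higher in iPrE2 and the others were higher in iPrE1. Sall4 was at 0.36. Among Polycomb genes, Hoxd13 was at -2.39, Gata2 at -1.77 and Cbx7 at -1.97, which made all 3 lower in iPrE2. In the signalling lists, Spry2, an inhibitor of the FGF pathway, was at -0.91, Il6st at 0.53 and Pim1, a kinase induced by STAT3, at -1.29. Tfap2c, an AP-2 factor of trophoblast and germ cells, was at -4.61. Outside the lists, Col6a5 was at 1.58 and Kdm5d, a Y-linked histone demethylase, at -2.83. Their causes were not tested.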

How the results depend on the processing

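The main counts of KO10_SL against iPrE moved little. Leaving out single libraries gave 6492 to 6861 genes higher and 5267 to 5587 lower, 31 to 33 endoderm genes lower, 25 to 27 pluripotency genes higher and 33 to 35 Polycomb targets higher. The number of endoderm genes between wild type and iPrE was 23 to 25, and that of Polycomb targets above both was 18 to 23. Without the filter on low counts, 12 endoderm genes were higher (7 with it) and 3 pluripotency genes were lower (1 with it). The median change over all genes was 0.19 under RLE scaling, 0.05 with DESeq2 and 0.23 without iPrE1 replicate 1 and iPrE2 replicate 2, against 0.14. The replicate block, which takes replicate numbers as pairs, gave 6658 higher and 5425 lower. Same-numbered KO10_SL and iPrE libraries deviated with correlations of only -0.03 to 0.08, so the numbers were not used as pairs. The 2 iPrE lines deviated with a correlation of -0.32, and with the iPrE2 numbers crossed, an alternative chosen after seeing the data, the counts were 6649 and 5396.

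The comparison between the iPrE lines depended on its settings. The 307 genes higher in iPrE2 were 137 to 293 with 1 library left out (137 without iPrE1 replicate 1, 160 without iPrE1 replicate 2 and 171 without iPrE2 replicate 1), 66 without both libraries with more fibroblast RNA and 490 with DESeq2. The 379 lower genes were 191 to 363 with 1 library left out (219 without iPrE1 replicate 2, 236 without iPrE2 replicate 1 and 191 without iPrE2 replicate 2), 103 without both libraries and 683 without the filter. With TG2A_ESC in place of E14_ESC, 2381 genes were higher in KO10_SL and 2482 lower, against 4534 and 3990. Then 1 pluripotency gene was higher and 8 lower, against 8 and 4, 1 endoderm gene was lower, against 2, and 2 Polycomb targets were lower, against 1. Against E14_ESC without the filter, 7 pluripotency and 4 endoderm genes were lower, and with 1 library left out 1 to 3 endoderm genes were lower (1 without KO10_SL replicate 2 or 3).

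Of 7882 gene-level values over the alternatives, 7496 kept their side of the threshold, 263 lost the call and 112 gained it. A further 11 changed sign where the main or the alternative value was called. Changes of sign between values that were both not called, as for Fst against iPrE1, are among the 7496. Against iPrE2 alone Nid2 was 0.20 and Plac1 -0.45, and against iPrE1 alone Spry2 was -0.18. With TG2A_ESC as wild type, Hnf4a was 1.39, Fst -0.00697, Pou5f1 -0.33, Utf1 -0.36, Dppa2 -0.26, Dppa4 -0.50, Foxd3 -0.49 and Eed -0.78. The cause was not tested. Genes with few counts in iPrE have changes that 1 library can move by more than 1.5 times.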

Other observations

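Kdm5d, which the rule for large differences named, is Y-linked, and the other Y-linked genes and Xist were read after its values were seen. Kdm5d was at 0, 0.41 and 0.34 CPM in KO10_SL, against 54.7 and 66.3 CPM in iPrE1 and 8.1 and 8.95 CPM in iPrE2. It was at 0.22 to 0.72 CPM in E14_ESC. The sum of Ddx3y, Eif2s3y, Kdm5d and Uty was 106, 101 and 99.9 CPM in KO10_SL, 373 and 406 CPM in iPrE1, 108 and 116 CPM in iPrE2, and 147 to 158 CPM in E14_ESC. Xist, the RNA that coats the inactive X chromosome, was at 6.26, 3.64 and 3.99 CPM in KO10_SL, 76.6 and 69.8 CPM in iPrE1, and 25.8 and 24.9 CPM in iPrE2.

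Genes above both wild-type sets and above iPrE included arginase 2 (Arg2), with 22.6, 20.2 and 18.0 CPM in KO10_SL, against 0.845, 0.0780, 0 and 0.395 CPM in iPrE and 0.317 ± 0.253 CPM in E14_ESC. Copies of the Eif4a3l family, close to an RNA helicase gene and near-identical to each other, were also there. Eif4a3l1 had 98.7, 109 and 117 CPM in KO10_SL, against 1.54, 0, 0 and 0.197 CPM in iPrE. Its reads may belong to other copies.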
